A study of Mus musculus with 28 samples.

Results

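The genes described here are 30 genes of cholesterol and fatty acid synthesis, listed by symbol for their known roles; the list was drawn up with earlier results of these data known. All 30 were matched to an Ensembl gene ID among the 55487 IDs of the files, and all 30 passed the filter for testing (at least 1 TPM in at least 4 libraries), which 13631 genes passed. By role, 8 make squalene from acetyl-CoA by way of mevalonate, 10 turn squalene into cholesterol, 4 regulate the pathway or carry sterols, 4 build saturated fatty acids and 4 are desaturases, which put double bonds into fatty acids. TPM is a share of a library's transcripts corrected for transcript length, so levels can be compared between genes.

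The 28 RNA-seq libraries came from wild-type mouse macrophages differentiated in culture from bone marrow, in 7 groups of 4. The M0 group was kept for 48 h without a polarizing cytokine, and the other 6 groups for 48 h with IFN-γ or with IL-10, each at 50 ng/mL. Under each cytokine, 3 populations were sorted by what they had taken up: dying regulatory T cells (Treg-phagocytic), dying conventional CD4 T cells (Tconv-phagocytic) or neither (non-phagocytic). ATP/NAD+ had been used to drive the T cells into apoptosis, and they carried a fluorescent antibody to CD4, in BV421 or Ax647, per the labels; titles and library names disagree on the dye for all 8 Treg-phagocytic of the 16 phagocytic libraries, and libraries are named here by their titles. The labels of M0 give no T cells and no uptake state, so any comparison with M0 may join the cytokine to the co-culture and the sort. No label says that the 4 libraries of a group came from separate mice or cultures, and p-values then measure the spread between these libraries, which may be technical.

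Cholesterol is made from acetyl-CoA through mevalonate, squalene and lanosterol. Its genes are switched on together by SREBP2 (gene Srebf2), and those of fatty acid synthesis mainly by SREBP1 (gene Srebf1); both are held in the endoplasmic reticulum by INSIG1 while sterol is plentiful. Macrophages that engulf dying cells receive cholesterol from outside, and macrophages activated by interferon or by microbial products are known for altered sterol and fatty acid synthesis.

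The libraries differed in depth by cytokine. TPM carries no read total, but in genes with 1 annotated transcript the low values fell on multiples of 1 read. From these steps IFN-γ libraries had 11.1% to 23.9% of the depth of the deepest library, those of IL-10 49.0% to 89.6%, and M0 68.8% to 100%. For a transcript of 2000 bases, 1 read was worth 0.154 to 0.331 TPM under IFN-γ and 0.0367 to 0.0749 TPM in the other libraries. Members near or under 1 TPM (Scd1, Fads2, Hsd17b7) were therefore read from few fragments under IFN-γ, and the spread between replicates was larger there. The 10 macrophage markers were present in every group, with a summed level of 24124 to 33021 scaled TPM. Of 15 T cell genes, 14 had a mean of at least 1 scaled TPM in M0 and in IL-10 non-phagocytic and 15 in the other groups. They summed to 53.9 to 141 in M0, 547 to 1044 in the 3 IFN-γ groups, non-phagocytic included, and 78.2 to 209 in the 3 IL-10 groups. The levels of 6 stromal markers summed to 104 to 123 in M0, 3.7 to 12.5 under IFN-γ, and 74.4 to 78.4 in IL-10 non-phagocytic, 143 to 155 in IL-10 Tconv-phagocytic and 26.9 to 30.5 in IL-10 Treg-phagocytic libraries. The part of depth and of these other transcripts in the results below was not tested. In such bulk libraries, fewer cells of a type and less RNA per cell cannot be told apart.

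The promoters of 4 members are shown because these genes carry the patterns described below. They are the RefSeq sequences (GRCm38.p6) of the 250 bases before the annotated start, read 5′ to 3′ on the strand of the gene. Capitals mark the letters CCAAT, the core bound by NF-Y, a partner of SREBP proteins, which reads ATTGG on the other strand, and TCACNCCAC, one form of the sterol regulatory element. Hmgcs1 (chr13:119690101-119690350, plus strand) encodes HMG-CoA synthase at the entry to the pathway and was the sole member with the sterol element in this window. Insig1 (chr5:28071162-28071411, plus strand) was higher, and Pmvk (chr3:89454291-89454540, plus strand, the upstream of its annotated starts) and Acly (chr11:100528001-100528250, minus strand) were lower, under IFN-γ than under IL-10 in all 3 sorted populations, with the sign of Insig1 turning in Treg-phagocytic macrophages when libraries are not scaled.
Hmgcs1: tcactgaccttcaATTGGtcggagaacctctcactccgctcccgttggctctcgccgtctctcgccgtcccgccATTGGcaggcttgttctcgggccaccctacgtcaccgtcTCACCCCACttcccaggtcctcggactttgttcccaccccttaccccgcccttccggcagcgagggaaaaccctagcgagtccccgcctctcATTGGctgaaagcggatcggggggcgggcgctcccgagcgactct
Insig1: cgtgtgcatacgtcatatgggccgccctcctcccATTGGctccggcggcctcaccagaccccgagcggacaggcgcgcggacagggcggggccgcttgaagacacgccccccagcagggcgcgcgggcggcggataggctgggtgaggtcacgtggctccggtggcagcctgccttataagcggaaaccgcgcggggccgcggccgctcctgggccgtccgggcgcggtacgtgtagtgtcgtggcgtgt
Pmvk: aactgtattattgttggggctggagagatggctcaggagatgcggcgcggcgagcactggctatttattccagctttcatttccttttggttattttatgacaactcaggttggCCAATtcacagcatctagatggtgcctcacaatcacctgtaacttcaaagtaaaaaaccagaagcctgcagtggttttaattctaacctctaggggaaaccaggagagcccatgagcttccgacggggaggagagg
Acly: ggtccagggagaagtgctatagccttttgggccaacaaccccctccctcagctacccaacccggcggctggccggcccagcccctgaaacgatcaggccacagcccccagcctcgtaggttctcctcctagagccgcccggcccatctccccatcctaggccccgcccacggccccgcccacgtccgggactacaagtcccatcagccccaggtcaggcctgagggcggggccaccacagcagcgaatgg

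In Hmgcs1 the capitals at -137 are the sterol element, and CCAAT begins at -237, -176 and -45 from the start. Insig1 has 1 CCAAT at -216, Pmvk has 1 at -136, and the Acly window has none. The table held a promoter for 23 of the 30 members. Of these 23 members, 18 (78.3%) had CCAAT on either strand in at least 1 promoter, against 37.5% of 27025 genes, and 1 (4.35%) had TCACNCCAC, against 1.22%. Members without CCAAT in these windows were Acaca, Acat2, Acly, Elovl6 and Fads2. A match of letters is a description and shows no binding.

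Levels are given as scaled TPM, meaning TPM divided by a factor per library that aligns the bulk of genes (a trimmed mean of log2 ratios). This step matters for IFN-γ. On the log2 scale the factors of IFN-γ non-phagocytic libraries differed from those of M0 by -0.288, and the median gene differed by -0.242 without scaling and by -0.005 with it. Changes below are relative to that shift. Tests were run with limma on log2(scaled TPM + 1), using only the groups compared, with Benjamini-Hochberg adjustment over all 13631 genes, and a gene was called at an adjusted p under 0.05. The addition of 1 makes fold changes of low members too small.

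**Figure D1:**
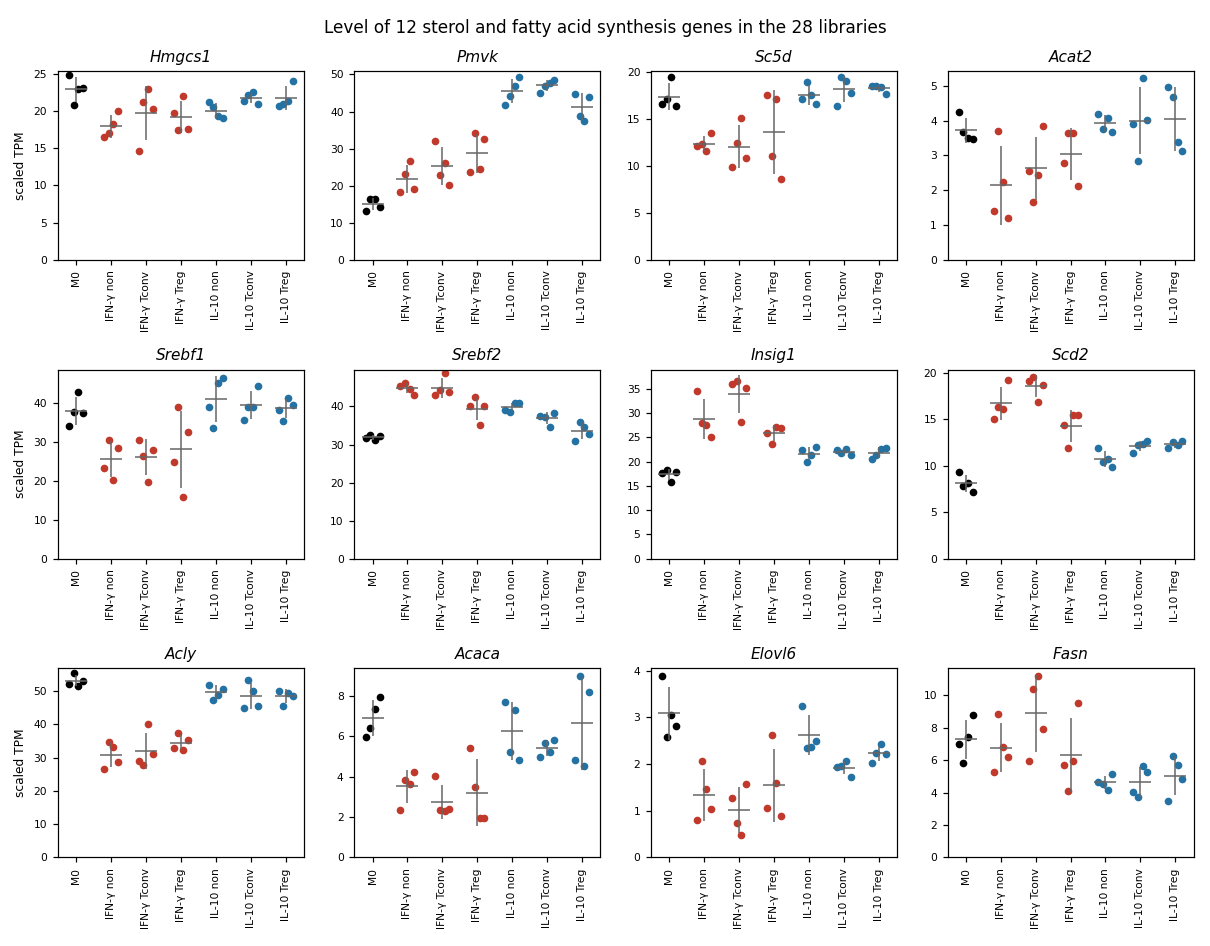
Scaled TPM (vertical axes, from 0) of 12 members in each of the 28 libraries, by group; points are libraries, and the grey mark and bar are the mean and SD of 4 libraries, with "non" for non-phagocytic. Black is M0, red IFN-γ and blue IL-10. The 12 members were chosen for display after their values were seen; Acly lies at 26.7 to 40.0 in the 12 IFN-γ libraries and at 45 to 55.4 in all others.

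Across the 28 libraries the most abundant members were Acly (mean 42.5 scaled TPM), Srebf2 (38.8), Fads1 (34.4), Srebf1 (33.9), Pmvk (32.1) and Ebp (31.7). Ranges of single libraries overlapped among these 6, from 26.7 to 55.4 for Acly and from 30.7 to 41.6 for Fads1, so their order is not firm. The lowest were Scd1 (mean 0.817), Fads2 (0.825), Hsd17b7 (1.21) and Elovl6 (1.97). Fads1, a desaturase of polyunsaturated fatty acids, had the most even level, with a ratio of 1.19 between the highest and the lowest group mean. That ratio was 3.12 for Pmvk, 3.03 for Elovl6 and 2.50 for Acaca. The larger ratios of Scd1 and Hsd17b7 rest on low levels. Summed over the 4 fatty acid synthesis genes, the level was 69.1 to 72.8 in M0, 56.0 to 67.6 under IL-10 and 35.1 to 54.0 under IFN-γ (12 libraries each). The 18 enzymes of sterol synthesis summed to 191 to 216 in M0, 199 to 249 under IFN-γ and 238 to 257 under IL-10. Acly alone had means of 53.1 ± 1.69 in M0, 30.9 ± 3.74 in IFN-γ non-phagocytic and 49.8 ± 2.00 in IL-10 non-phagocytic libraries (SD, n = 4). Pmvk alone had means of 15.1 ± 1.65, 21.8 ± 3.79 and 45.5 ± 3.23 in the same groups (SD, n = 4).

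The first question was how each cytokine state differed from M0, taken in non-phagocytic macrophages. Under IFN-γ 3 of the 4 genes that build fatty acids fell while Scd2, Insig1 and Srebf2 rose. Under IL-10 Pmvk rose from a mean of 15.1 to 45.5 scaled TPM, and no other member changed by more than 0.55 on the log2 scale. For IFN-γ against M0, 15 of 30 members were called (50%), 7 higher and 8 lower, where 53% of all genes tested were called, 27% higher and 26.1% lower. For IL-10 against M0, 10 members were called (33.3%), 7 higher and 3 lower, against 26.6% of all genes, 13.8% higher and 12.8% lower. The 2 comparisons share the M0 libraries. The median member differed from M0 by -0.07 under IFN-γ and 0.04 under IL-10 on the log2 scale, against -0.005 and 0.004 for all genes. Without scaling, the IFN-γ calls were 3 higher and 12 lower, and the IL-10 calls were 7 and 3. The median log2 fold change of all genes was then -0.242 and 0.017, and the shares of all genes called are not given here. A model of all 28 libraries called 6 members for IL-10, without Fads1, Fasn, Idi1 and Dhcr7.

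**Figure D2:**
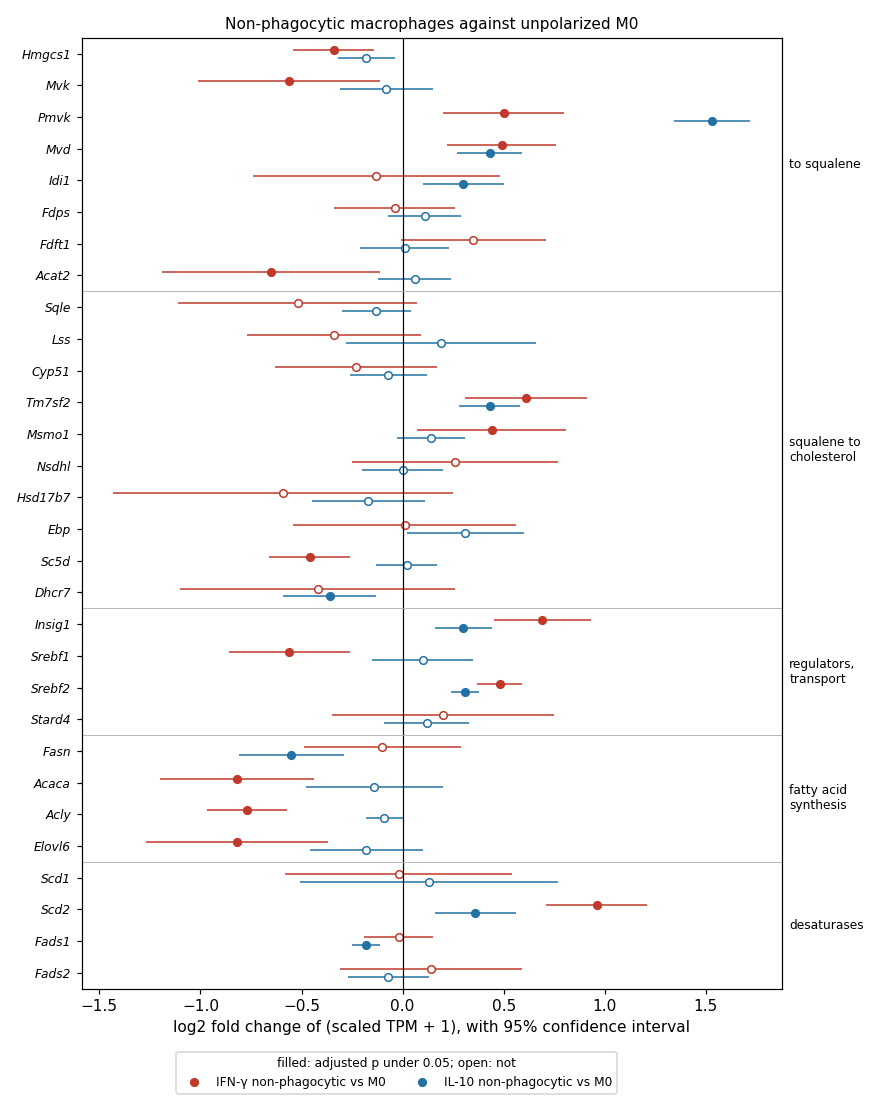
Log2 fold change of (scaled TPM + 1) against M0 (horizontal axis) of the 30 members, by role, in IFN-γ (red) and IL-10 (blue) non-phagocytic macrophages, 4 libraries per group. Bars are 95% confidence intervals and filled points have an adjusted p under 0.05; Pmvk stands apart at 1.53 under IL-10, and Acly, Acaca and Elovl6 lie between -0.82 and -0.77 under IFN-γ.

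In the entry branch to squalene, Pmvk (ENSMUSG00000027952; chr3:89454541-89469013, plus strand), phosphomevalonate kinase, was at 13.2, 16.5, 16.4 and 14.3 scaled TPM in M0. It was at 18.4, 23.2, 26.6 and 19.2 under IFN-γ and at 41.8, 44.1, 46.8 and 49.2 under IL-10, so that the 3 groups did not overlap. Its log2 fold change against M0 was 0.50 (SE 0.131, limma adjusted p 0.0113) under IFN-γ and 1.53 (SE 0.0813, limma adjusted p 2e-06) under IL-10. Mvd, the decarboxylase of the following step, rose in both states. It was at 12.1, 14.3, 12.9 and 12.8 in M0, at 18.1, 22.1, 15.1 and 20.3 under IFN-γ (log2 0.49, SE 0.119, limma adjusted p 0.00738) and at 19.9, 16.6, 18.1 and 17.1 under IL-10 (log2 0.43, SE 0.0697, limma adjusted p 0.00207). All IFN-γ and IL-10 non-phagocytic libraries lay above all M0 libraries. The calls of Pmvk and Mvd under IFN-γ were lost without scaling (log2 0.22 for each, limma adjusted p 0.179 and 0.128), and that of Pmvk with a GC and length correction (log2 0.30, limma adjusted p 0.0923).

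Of the other 6 enzymes of this branch, Hmgcs1 was lower under IFN-γ. It was at 24.9, 20.8, 23.0 and 23.1 in M0 and at 16.5, 17.0, 18.3 and 20.0 under IFN-γ, without overlap (log2 -0.34, SE 0.0861, limma adjusted p 0.00923). Under IL-10 it was at 19.1 to 21.2 and missed the threshold (log2 -0.18, limma adjusted p 0.0515). Acat2, the cytosolic thiolase that joins acetyl-CoA units, and Mvk, mevalonate kinase, were called lower under IFN-γ (log2 -0.65 and -0.56, limma adjusted p 0.0457 and 0.0387). Their groups overlapped with M0, and the calls ended in 7 and 5 of the 8 fits that left out 1 library, with adjusted p up to 0.11 and 0.0951. Idi1, the isomerase that yields dimethylallyl diphosphate, was called higher under IL-10 at 3.21 to 4.07 against 2.33 to 2.95 scaled TPM (log2 0.30, limma adjusted p 0.0405), a call that ended in 6 of 8 such fits. Fdps, farnesyl diphosphate synthase, and Fdft1, squalene synthase, were not called in either comparison.

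Among the 10 enzymes from squalene to cholesterol, 2 were called higher and 1 lower under IFN-γ, and 1 higher and 1 lower under IL-10. The shares of all genes were 27% higher and 26.1% lower under IFN-γ, and 13.8% and 12.8% under IL-10. Tm7sf2, a sterol reductase, was at 13.4, 13.5, 14.5 and 12.2 in M0, at 26.1, 17.0, 23.2 and 19.0 under IFN-γ and at 18.1, 19.5, 17.0 and 19.3 under IL-10. It rose in both (log2 0.61, SE 0.133, limma adjusted p 0.00425, and log2 0.43, SE 0.0649, limma adjusted p 0.00131), with adjusted p 0.0517 under IFN-γ without scaling. Exons of Vps51 on the same strand cover 12.1% of its exon bases, so its level is uncertain. Sc5d, lathosterol oxidase, stood at 16.6, 17.1, 19.5 and 16.4 in M0 and fell under IFN-γ to 12.1, 12.3, 11.6 and 13.5 (log2 -0.46, SE 0.0886, limma adjusted p 0.00228). Under IL-10 it was at 16.6 to 19.0 (log2 0.02, 95% interval -0.14 to 0.17). Msmo1, sterol methyl oxidase, was called higher under IFN-γ (log2 0.44, limma adjusted p 0.0465), but its groups overlapped and 5 of 8 fits without 1 library lost the call. Dhcr7, the reductase of the last step, was at 8.93, 12.3, 10.1 and 9.48 in M0 and at 7.35, 8.59, 7.10 and 7.65 under IL-10 (log2 -0.36, SE 0.1, limma adjusted p 0.0276), a call lost in 4 of 8 such fits. The other 6, Sqle, Lss, Cyp51, Nsdhl, Hsd17b7 and Ebp, passed the test in neither comparison. Their IFN-γ intervals were wide, for example -1.11 to 0.07 for Sqle, squalene epoxidase.

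The 2 SREBP genes moved apart under IFN-γ. Srebf2 (ENSMUSG00000022463; chr15:82147181-82205379, plus strand) was at 31.7, 32.4, 31.1 and 32.3 in M0, at 45.3, 46.2, 44.6 and 43.1 under IFN-γ and at 39.2, 38.6, 40.8 and 40.8 under IL-10. These groups did not overlap, and Srebf2 rose by 0.48 (SE 0.0498, limma adjusted p 0.000063) and 0.31 (SE 0.0321, limma adjusted p 0.000141) on the log2 scale. Srebf1 (ENSMUSG00000020538; chr11:60199089-60222581, minus strand) was at 34.2, 37.7, 42.8 and 37.4 in M0 and at 23.4, 30.5, 20.3 and 28.5 under IFN-γ, a fall of all 4 libraries below all of M0 (log2 -0.56, SE 0.13, limma adjusted p 0.00584). With a GC and length correction that fall was -0.27 (limma adjusted p 0.109). Under IL-10 Srebf1 stood at 39.0, 33.6, 45.2 and 46.5, which overlapped with M0 (log2 0.10, 95% interval -0.14 to 0.35). Gene totals do not separate the transcript forms of Srebf1. Insig1 (ENSMUSG00000045294; chr5:28071363-28078662, plus strand) was at 17.7, 18.2, 15.8 and 17.8 in M0, at 34.5, 28, 27.6 and 25 under IFN-γ and at 22.3, 20.0, 21.3 and 23.1 under IL-10. It rose in both, by 0.69 (SE 0.103, limma adjusted p 0.00053) and 0.30 (SE 0.0607, limma adjusted p 0.00616). Stard4, a cholesterol carrier protein, was at 1.89 to 4.74 in these 3 groups and was not called.

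Of the 4 fatty acid synthesis genes, 3 fell under IFN-γ and none rose, where 26.1% of all genes were called lower and 27% higher. Acly (ENSMUSG00000020917; chr11:100476353-100528000, minus strand), ATP citrate lyase, which supplies cytosolic acetyl-CoA to both pathways, was at 52.3, 55.4, 51.6 and 53.2 in M0. Under IFN-γ it was at 26.7, 34.8, 33.2 and 28.8 (log2 -0.77, SE 0.0858, limma adjusted p 0.000094). Acaca, acetyl-CoA carboxylase, was at 5.94, 6.41, 7.32 and 7.94 in M0 and at 2.35, 3.85, 3.64 and 4.22 under IFN-γ (log2 -0.82, SE 0.168, limma adjusted p 0.00315). Elovl6, the elongase of palmitate, was at 3.88, 2.59, 3.06 and 2.82 in M0 and at 0.802, 2.07, 1.46 and 1.03 under IFN-γ (log2 -0.82, SE 0.199, limma adjusted p 0.0074). Each of these 3 had all IFN-γ libraries below all M0 libraries. Under IL-10 the same 3 were at 47.5 to 52.0, 4.83 to 7.67 and 2.34 to 3.25, and none was called (limma adjusted p 0.115, 0.554 and 0.345). Fasn, fatty acid synthase, showed the other pattern. It was at 7.01, 5.85, 7.44 and 8.79 in M0, at 5.26, 8.83, 6.79 and 6.20 under IFN-γ, which overlapped (log2 -0.10, 95% interval -0.48 to 0.29), and at 4.68, 4.54, 4.18 and 5.13 under IL-10, all below M0 (log2 -0.55, SE 0.112, limma adjusted p 0.00721).

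Of the desaturases, Scd2 (ENSMUSG00000025203; chr19:44293674-44306864, plus strand), a stearoyl-CoA desaturase, was at 9.36, 7.78, 8.18 and 7.19 in M0, at 15.1, 16.4, 16.1 and 19.3 under IFN-γ and at 11.9, 10.4, 10.7 and 9.89 under IL-10. The groups did not overlap, and it rose by 0.96 (SE 0.111, limma adjusted p 0.00012) and 0.36 (SE 0.0865, limma adjusted p 0.0145). Its near copy Scd1 was at 0.0667 to 1.31 under IFN-γ, 0.269 to 2.21 under IL-10 and 0.399 to 0.869 in M0, and was not called. How reads shared by the copies were split is not stated. Fads1 fell slightly under IL-10, from 35.4, 35.6, 35.5 and 36.5 to 31.6, 30.7, 31.2 and 32.4 (log2 -0.18, SE 0.0298, limma adjusted p 0.0024), and was at 31.2 to 39.4 under IFN-γ. Fads2, which acts before Fads1 on polyunsaturated fatty acids, was at 0.39 to 1.30 in these groups and was not called.

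The second question was how IFN-γ and IL-10 macrophages differed when both had been co-cultured and sorted alike. This was asked in 3 sets of libraries with no library in common: non-phagocytic, Tconv-phagocytic and Treg-phagocytic. Acly and Pmvk were lower and Insig1 was higher under IFN-γ in all 3, although Insig1 changed sign in Treg-phagocytic macrophages without scaling (log2 -0.05, limma adjusted p 0.619). The members called were 12 of 30 in non-phagocytic (4 higher, 8 lower), 14 in Tconv-phagocytic (5 higher, 9 lower) and 7 in Treg-phagocytic macrophages (3 higher, 4 lower). Of all genes, 51.1% were called in non-phagocytic (26% higher, 25.1% lower), 52.1% in Tconv-phagocytic (26.9% higher, 25.2% lower) and 36.8% in Treg-phagocytic macrophages (18.5% higher, 18.2% lower). Called in one direction in all 3 were 3 members (10%), against 24.9% of all genes. The sign was the same in all 3 for 20 members (66.7%), against 68.8% of all genes. Without scaling the calls were 1 higher and 11 lower, 3 higher and 13 lower, and 2 higher and 12 lower. The median log2 fold change of all genes was then -0.257, -0.146 and -0.264. With a GC and length correction the calls of members were 6 and 6, 6 and 7, and 5 and 3. Shares of all genes called under these settings are not given here. The non-phagocytic count fell to 6 without IL-10 non-phagocytic library 1. The Treg-phagocytic count fell to 3 without IL-10 Treg-phagocytic Ax647-2 and to 4 without BV421-1 or BV421-2.

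**Figure D3:**
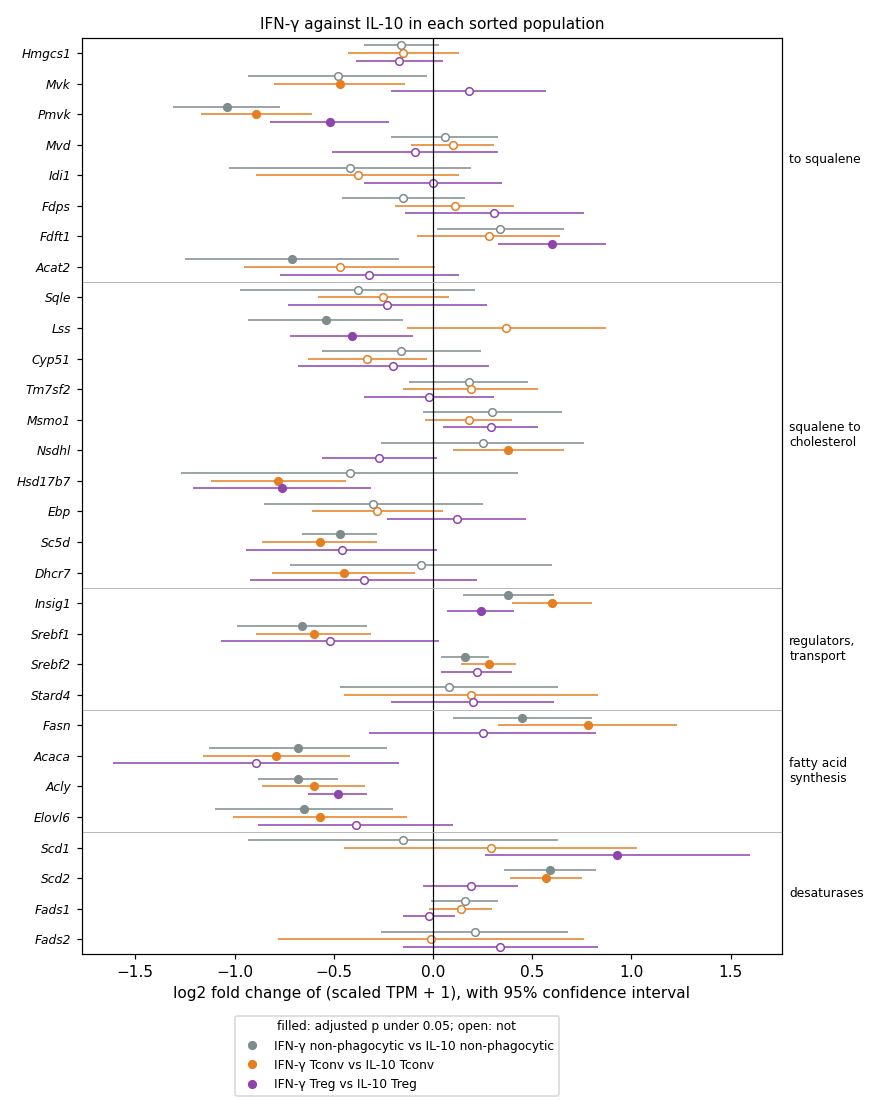
Log2 fold change of (scaled TPM + 1), IFN-γ against IL-10 (horizontal axis), of the 30 members by role in non-phagocytic (grey), Tconv-phagocytic (orange) and Treg-phagocytic (purple) macrophages, 4 libraries per group. Bars are 95% confidence intervals and filled points have an adjusted p under 0.05; Pmvk, Acly and Insig1 are filled in all 3, with Insig1 changing sign in Treg-phagocytic and Srebf2 in non-phagocytic macrophages when libraries are not scaled.

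Values of phagocytic libraries are given in the order BV421-1, BV421-2, Ax647-1 and Ax647-2 for Tconv, and Ax647-1, Ax647-2, BV421-1 and BV421-2 for Treg, by the dye in the titles. Pmvk was at 32.1, 22.9, 26.0 and 20.2 in IFN-γ Tconv-phagocytic and at 45.1, 47.0, 47.6 and 48.5 in IL-10 Tconv-phagocytic macrophages. In Treg-phagocytic ones it was at 23.6, 34.1, 24.6 and 32.5 and at 44.8, 38.9, 37.5 and 43.9. No IFN-γ library reached an IL-10 library. The log2 differences were -1.04 (SE 0.117, limma adjusted p 0.000088) in non-phagocytic, -0.89 (SE 0.123, limma adjusted p 0.000287) in Tconv-phagocytic and -0.52 (SE 0.132, limma adjusted p 0.0148) in Treg-phagocytic macrophages. The change of that difference from non-phagocytic to Treg-phagocytic macrophages, 0.51, missed the threshold (95% interval 0.13 to 0.90, limma adjusted p 0.0947).

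For Acly, the values were 29.1, 27.7, 40.0 and 31.2 against 45, 53.3, 50.1 and 45.7 in Tconv-phagocytic and 32.9, 37.5, 32.4 and 35.4 against 50.2, 45.4, 49.5 and 48.7 in Treg-phagocytic macrophages. All IFN-γ libraries lay below all IL-10 libraries. The log2 differences were -0.68 (SE 0.0878) in non-phagocytic, -0.60 (SE 0.114) in Tconv-phagocytic and -0.48 (SE 0.0666) in Treg-phagocytic macrophages, with limma adjusted p of 0.000205, 0.00195 and 0.00074. Acaca was lower in non-phagocytic (log2 -0.68, SE 0.197, limma adjusted p 0.0173) and Tconv-phagocytic macrophages, where it was at 4.02, 2.33, 2.31 and 2.38 against 4.95, 5.68, 5.19 and 5.79 (log2 -0.79, SE 0.163, limma adjusted p 0.003). In Treg-phagocytic ones it was at 5.43, 3.46, 1.94 and 1.96 against 4.80, 8.97, 4.54 and 8.20, which overlapped and was not called. The non-phagocytic call of Acaca ended without IL-10 library 1 or 3 (limma adjusted p 0.0553 and 0.057) and with the GC and length correction (log2 -0.48, limma adjusted p 0.0729). Elovl6 was lower in non-phagocytic (log2 -0.65, SE 0.199, limma adjusted p 0.0228) and Tconv-phagocytic macrophages (log2 -0.57, SE 0.196, limma adjusted p 0.0361). Its first call ended without IL-10 library 1 or 4 (limma adjusted p 0.0685 and 0.0504), and the second in 6 of 8 fits without 1 library.

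Fasn differed in the other direction from these 3 genes. In Tconv-phagocytic macrophages it was at 5.96, 10.4, 11.2 and 7.95 under IFN-γ and at 4.05, 3.74, 5.63 and 5.28 under IL-10 (log2 0.78, SE 0.199, limma adjusted p 0.0094). It was also called higher in non-phagocytic macrophages (log2 0.45, SE 0.155, limma adjusted p 0.0383), a call lost in 6 of 8 fits without 1 library, and was at 4.09 to 9.50 against 3.48 to 6.24 in Treg-phagocytic ones, not called.

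Insig1 was at 36.0, 36.6, 28.2 and 35.1 against 22.3, 21.8, 22.7 and 21.3 in Tconv-phagocytic and at 25.9, 23.6, 27.2 and 27.0 against 20.6, 21.3, 22.7 and 22.8 in Treg-phagocytic macrophages. All IFN-γ libraries were above all IL-10 libraries. The log2 differences were 0.38 (SE 0.102), 0.60 (SE 0.0889) and 0.24 (SE 0.0749) in non-phagocytic, Tconv-phagocytic and Treg-phagocytic macrophages, with limma adjusted p of 0.0119, 0.000436 and 0.0382. The Treg-phagocytic call ended in 7 of 8 fits without 1 library, and the non-phagocytic one without scaling (log2 0.09, limma adjusted p 0.45). Srebf1 was lower by -0.66 (SE 0.146, limma adjusted p 0.00446) in non-phagocytic macrophages, with adjusted p 0.0573 after a GC and length correction. In Tconv-phagocytic ones it was at 30.4, 26.3, 19.6 and 27.9 against 35.6, 39.0, 39.0 and 44.5 (log2 -0.60, SE 0.129, limma adjusted p 0.00397). In Treg-phagocytic ones it was at 24.9, 39.0, 15.9 and 32.5 against 38.1, 35.5, 41.4 and 39.5, which overlapped and was not called. Srebf2 was at 42.9, 44.3, 48.8 and 43.7 against 37.5, 37.2, 34.6 and 38.2 in Tconv-phagocytic macrophages (log2 0.28, SE 0.0623, limma adjusted p 0.00491), a call lost without scaling (log2 0.11, limma adjusted p 0.205). Its non-phagocytic difference of 0.16 (SE 0.0518, limma adjusted p 0.0256) turned to -0.13 without scaling (limma adjusted p 0.0567) and lost the call without IL-10 library 1 or 2 (limma adjusted p 0.0676 and 0.071). In Treg-phagocytic macrophages Srebf2 was at 40.2, 42.4, 35.1 and 40.1 against 31.0, 36.0, 34.7 and 32.8 and was not called.

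Scd2 was at 19.1, 19.6, 16.9 and 18.7 against 11.4, 12.2, 12.4 and 12.7 in Tconv-phagocytic macrophages (log2 0.57, SE 0.0793, limma adjusted p 0.000292) and was higher by 0.59 (SE 0.103, limma adjusted p 0.00117) in non-phagocytic ones. In Treg-phagocytic macrophages the levels of 14.4, 11.9, 15.5 and 15.5 against 11.9, 12.6, 12.2 and 12.7 overlapped. Scd1 was called there instead, at 1.32, 0.435, 3.04 and 0.851 against 0.134, 0.161, 0.208 and 0.189 (log2 0.93, SE 0.294, limma adjusted p 0.0373). These are low levels, and the call ended in 5 of 8 fits without 1 library.

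In the sterol branch, Sc5d was lower in non-phagocytic (log2 -0.47, SE 0.085, limma adjusted p 0.00144) and Tconv-phagocytic macrophages, at 9.85, 12.4, 15.1 and 10.8 against 16.4, 19.5, 19.1 and 17.8 (log2 -0.57, SE 0.128, limma adjusted p 0.00457). In Treg-phagocytic ones its 4 IFN-γ libraries, at 8.65 to 17.6, also lay below the IL-10 ones at 17.7 to 18.5, but the test missed the threshold (log2 -0.46, limma adjusted p 0.123). Hsd17b7, a sterol ketone reductase, was at 0.381, 0.525, 0.189 and 0.319 against 1.22, 1.32, 1.41 and 1.32 in Tconv-phagocytic macrophages (log2 -0.78, SE 0.15, limma adjusted p 0.00204). In Treg-phagocytic ones it was at 0.909, 0.764, 0.184 and 0.216 against 1.41, 1.84, 1.31 and 1.48 (log2 -0.76, SE 0.198, limma adjusted p 0.0173). No library overlapped, though the IFN-γ values all lie under 1 scaled TPM. The second call ended without IL-10 Treg-phagocytic Ax647-2 (limma adjusted p 0.0508). Lss, lanosterol synthase, was called lower in non-phagocytic (log2 -0.54, limma adjusted p 0.028) and Treg-phagocytic macrophages. In the latter it was at 5.31, 5.23, 4.78 and 6.12 against 6.18, 7.37, 7.86 and 8.50 (log2 -0.41, SE 0.135, limma adjusted p 0.0431). Each of its calls ended in 6 of 8 fits without 1 library, and with the GC and length correction (limma adjusted p 0.141 and 0.423).

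Fdft1 was higher in Treg-phagocytic macrophages under IFN-γ, at 7.14, 8.50, 9.34 and 7.80 against 5.07, 5.24, 5.02 and 4.90 (log2 0.60, SE 0.119, limma adjusted p 0.00469). On the opposite strand, exons of Ctsb cover 18.3% of its exon bases. Ctsb, a lysosomal protease at a mean of 9900 scaled TPM, was lower in those IFN-γ libraries (7767 to 8019) than in the IL-10 ones (12785 to 13845), the opposite direction to Fdft1. Whether the counting used the strand is not stated, so the level of Fdft1 is uncertain. Mvk (log2 -0.47, limma adjusted p 0.0233), Dhcr7 (log2 -0.45, limma adjusted p 0.0372) and Nsdhl (log2 0.38, limma adjusted p 0.0286) were called in Tconv-phagocytic macrophages, and Acat2 (log2 -0.71, limma adjusted p 0.0317) in non-phagocytic ones. The calls of Dhcr7, Nsdhl and Acat2 ended in 5, 5 and 6 of 8 fits without 1 library. That of Mvk ended without IL-10 Tconv-phagocytic Ax647-2 or BV421-2 (limma adjusted p 0.0729 and 0.0575) and with the GC and length correction (log2 -0.31, limma adjusted p 0.103).

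The third question was whether engulfing a T cell, and which kind, changed these genes within a cytokine. Of the 6 comparisons, 5 called no member and the other called 1. In Treg- against Tconv-phagocytic macrophages, limma called 0 members under IFN-γ (12.7% of all genes called) and 0 under IL-10 (1.4%). At an unadjusted p under 0.05 there were 5 members under IFN-γ, against 27.3% of all genes, and 4 under IL-10, against 13.9%. A model of all 28 libraries, which gives the more variable IFN-γ groups the common spread, called 7 and 0, and with a variance weight per group 1 and 0. Shares of all genes called in these models are not given here. The count was 1 rather than 0 without IFN-γ Tconv-phagocytic Ax647-1, and likewise without IL-10 Tconv-phagocytic BV421-2. These are misses of a threshold. The 95% intervals reached from -1.28 to 1.20 under IFN-γ and from -0.82 to 0.75 under IL-10, with a median interval of ±0.48 and ±0.21.

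**Figure D4:**
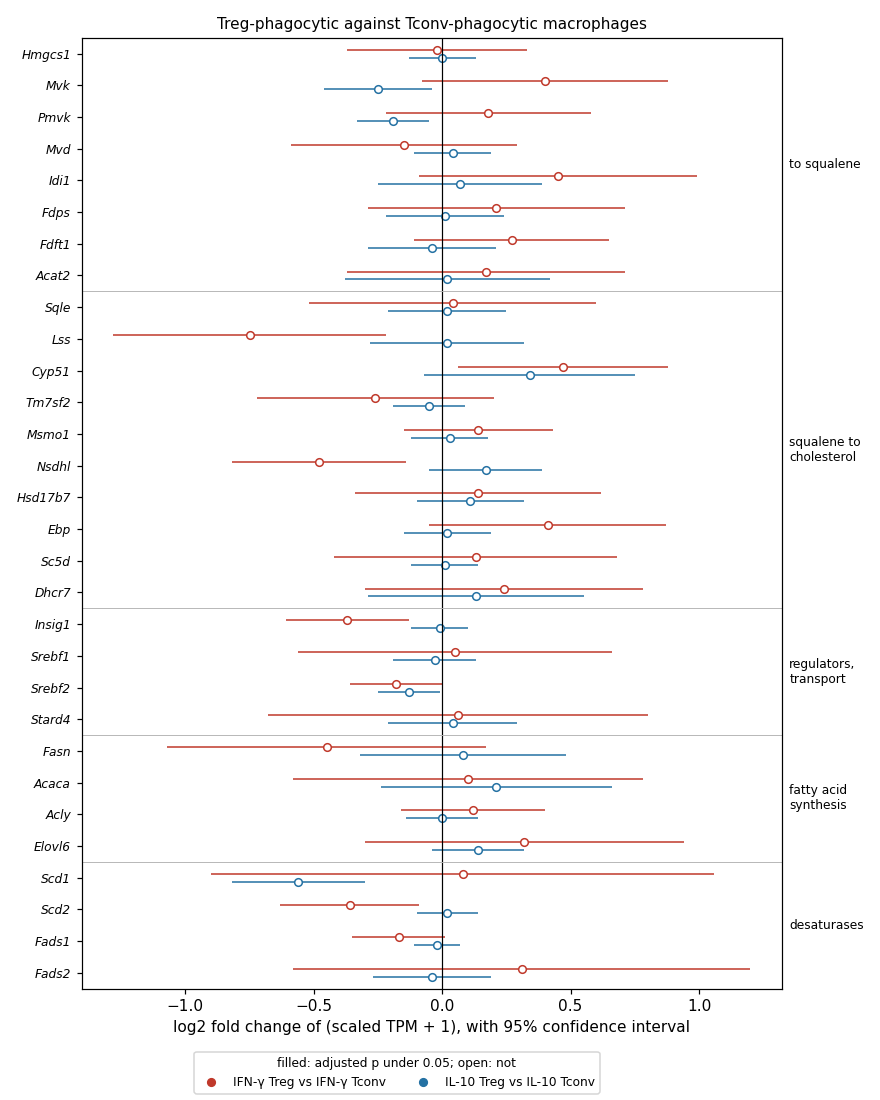
Log2 fold change of (scaled TPM + 1), Treg- against Tconv-phagocytic macrophages (horizontal axis), of the 30 members by role under IFN-γ (red) and IL-10 (blue), 4 libraries per group. Bars are 95% confidence intervals; all points are open because no member had an adjusted p under 0.05, and the intervals under IFN-γ are the wider ones.

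Under IFN-γ the member nearest to the threshold was Insig1, with all Treg-phagocytic libraries (23.6 to 27.2) below all Tconv-phagocytic ones (28.2 to 36.6) and a log2 difference of -0.37 (SE 0.104, limma adjusted p 0.0515). Lss (log2 -0.75, limma adjusted p 0.0709), Nsdhl (log2 -0.48, limma adjusted p 0.075), Scd2 (log2 -0.36, limma adjusted p 0.0851), Srebf2 (log2 -0.18, limma adjusted p 0.186) and Fads1 (log2 -0.17, limma adjusted p 0.204) also had Treg-phagocytic libraries all below the Tconv-phagocytic ones. Cyp51, lanosterol demethylase, had them all above, at 4.19 to 6.95 against 3.69 to 4.09 (log2 0.47, limma adjusted p 0.133). Groups did not overlap for 1 member in the higher and 6 in the lower direction, against 9.03% and 9.96% of all genes. Srebf1 differed by 0.05 (95% interval -0.56 to 0.66). Under IL-10, Scd1 was at 0.134 to 0.208 in Treg-phagocytic and 0.416 to 0.984 in Tconv-phagocytic macrophages (log2 -0.56, limma adjusted p 0.0627). There, Insig1, Srebf1 and Srebf2 differed by -0.01, -0.03 and -0.13, with limma adjusted p of 0.951, 0.904 and 0.331.

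Against non-phagocytic macrophages, limma called 0 members in IFN-γ Treg-phagocytic (8.28% of all genes), 0 in IFN-γ Tconv-phagocytic (0.00734%) and 0 in IL-10 Tconv-phagocytic macrophages (6.02%). At an unadjusted p under 0.05 there were 2, 0 and 7 members, against 23.2%, 6.38% and 20% of all genes. The model of all libraries called 4, 0 and 0, and its shares of all genes are not given here. The third count was 1 without IL-10 non-phagocytic library 4. The sole call was in IL-10 Treg-phagocytic macrophages (11.3% of all genes called). Srebf2 was at 31.0, 36.0, 34.7 and 32.8 there and at 39.2, 38.6, 40.8 and 40.8 in IL-10 non-phagocytic macrophages, without overlap, and fell by 0.24 on the log2 scale (SE 0.0505, limma adjusted p 0.0194). The call ended without Treg-phagocytic BV421-2 or non-phagocytic library 3 or 4 (limma adjusted p 0.054, 0.0607 and 0.0563) and with a GC and length correction (log2 -0.14, limma adjusted p 0.146). IL-10 Tconv-phagocytic libraries were intermediate, at 37.5, 37.2, 34.6 and 38.2 (log2 -0.11 against non-phagocytic, limma adjusted p 0.166). The summed T cell genes were 179 to 209 in IL-10 Treg-phagocytic, 114 to 160 in IL-10 Tconv-phagocytic and 78.2 to 90.2 in IL-10 non-phagocytic libraries, and the stromal markers were 26.9 to 30.5 in IL-10 Treg-phagocytic against 74.4 to 78.4 in IL-10 non-phagocytic libraries. Their part in this difference was not tested. Srebf1 and Insig1 differed by -0.08 and 0.01 in the same comparison (95% intervals -0.31 to 0.15 and -0.12 to 0.14).

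Whether the effect of the kind of T cell depended on the cytokine was tested as a difference of differences. Nsdhl, a sterol dehydrogenase, was the sole member called for Treg against Tconv (13.6% of all genes called). It was at 4.06, 5.20, 5.04 and 4.55 against 7.72, 7.22, 5.99 and 6.92 under IFN-γ, and at 6.61, 5.43, 5.74 and 5.74 against 6.01, 5.20, 4.82 and 4.50 under IL-10. The difference of differences was -0.65 (SE 0.172, limma adjusted p 0.0187), called in all 16 fits that left out 1 library and lost with a variance weight per group (limma adjusted p 0.0673). The count of members called was 5 without IFN-γ Tconv-phagocytic Ax647-1, 2 without its BV421-1, and 4 and 3 without IFN-γ Treg-phagocytic BV421-1 and BV421-2. Insig1 (-0.36, limma adjusted p 0.052) lay just outside the threshold. For Treg-phagocytic against non-phagocytic macrophages limma called 0 members (9.46% of all genes called), and for Tconv-phagocytic against non-phagocytic 0 (1.68%). At an unadjusted p under 0.05 there were 4 members and 1 member, against 23.1% and 12.1% of all genes. The model of all libraries called 1 and 0. Shares of all genes called under these alternatives are not given here. The first of these counts was 1 without IFN-γ Treg-phagocytic Ax647-1 or IFN-γ non-phagocytic library 2 or 3.

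Other genes around the pathway were taken from 5 lists. Their counts for IFN-γ against M0 stand beside 27% of all genes called higher and 26.1% lower, and those for IL-10 against M0 beside 13.8% higher and 12.8% lower. Of 13 genes that process SREBP proteins, 1 was called higher and 8 lower under IFN-γ against M0 in non-phagocytic macrophages. Scap, the escort that carries SREBP proteins out of the endoplasmic reticulum, was at 11.7 ± 2.35 against 23.2 ± 2.48 scaled TPM (SD, n = 4; log2 -0.95, limma adjusted p 0.000575). Sec24d, a coat protein of the vesicles that leave it, was at 21.4 ± 1.27 against 37.5 ± 2.19 (SD, n = 4; log2 -0.78, limma adjusted p 0.000026). Under IL-10, 1 gene of this list was called higher (Ufd1, log2 0.26) and 1 lower (Vcp, log2 -0.21). Of 27 other genes of fatty acid synthesis and esterification, 2 were called higher and 15 lower under IFN-γ, led by Oxsm (log2 -1.30), Agpat2 (-1.13) and Hacd2 (-1.11), and 1 higher and 4 lower under IL-10. Oxsm belongs to the mitochondrial pathway of fatty acid synthesis, Agpat2 makes phosphatidic acid and Hacd2 takes part in elongation. Of 16 further genes of the mevalonate and sterol branch, 5 were called higher and 4 lower under IFN-γ, shares near those of all genes. Under IL-10, 0 genes of this list were called higher and 4 lower.

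Between IFN-γ and IL-10, 51.1%, 52.1% and 36.8% of all genes were called in non-phagocytic, Tconv-phagocytic and Treg-phagocytic macrophages. By direction these were 26%, 26.9% and 18.5% higher, and 25.1%, 25.2% and 18.2% lower. Beside these shares, the SREBP processing list had 1 higher and 6 lower in non-phagocytic, 1 and 5 in Tconv-phagocytic and 0 and 4 in Treg-phagocytic macrophages. Sec24d was among the lower ones in each (log2 -0.82, -0.71 and -0.69). The other fatty acid synthesis genes had 3 higher and 14 lower, 2 and 12, and 2 and 7. The largest changes under IFN-γ among its called genes were Oxsm (log2 -1.38), Agpat2 (-1.03) and Hacd2 (-0.95) in non-phagocytic macrophages. In Tconv-phagocytic ones they were Mcat (log2 -0.98), Fads3 (-0.96) and Acss2 (0.88, limma adjusted p 0.00222), which makes acetyl-CoA from acetate. In Treg-phagocytic ones they were Fads3 (log2 -1.27, with groups overlapping), Acss2 (0.86, limma adjusted p 0.000768) and Gpam (-0.72). The medians of the SREBP processing and of the other fatty acid synthesis list for IFN-γ against M0 were -0.33 and -0.32, beside -0.005 for all genes tested. Those of the lists of cholesterol transport and of fatty acid oxidation were -0.31 each, and that of the further sterol genes was 0.07.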

How the data were processed

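Polyadenylated RNA of 28 libraries was sequenced after a directional library kit. Reads were processed with STAR and RSEM on mm10, per the submitters' processing notes; versions, annotation and strand setting are not given in the sources used here. The authors deposited a TPM value per Ensembl gene and library, per the file headers. TPM divides by transcript length and by the library total, so genes that take a large share lower all others, and no read total is kept.

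Of 55487 gene IDs, 55141 were matched to a symbol. The 13631 genes that reached 1 TPM in 4 or more libraries entered the tests. Each library was scaled by a trimmed mean of log2 ratios (30% of ratios and 5% of levels trimmed at each end), and log2(scaled TPM + 1) was fitted with limma 3.58.1 in R 4.3.3 (empirical Bayes with a trend), with the groups compared alone in each fit, Benjamini-Hochberg adjustment over all genes and a threshold of 0.05. There were 11 comparisons of groups and 3 differences of differences. The fit was also run on simulated data with far fewer changed genes than were called between cytokines here, and no result rests on it. None of 378 pairs of libraries held identical values.

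Relative depth was read from 14527 genes with 1 transcript of 500 to 2000 bases. In each library, 87.7% to 92.0% of values up to 4 reads were whole to within 0.15 reads. A step fixed beforehand would give 30% by chance. The step was chosen here for a high share, so 30% is not the chance level of these values.

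The members and lists were chosen with earlier results of these data known. Library values were given for called members whose groups did not overlap, up to 8 per comparison in order of size, and always for Srebf1, Srebf2 and Insig1; of other lists, up to 3 called genes were named. Alternatives were no scaling, median-of-ratios scaling, a pseudocount of 0.1 or 5, a filter of 5 TPM or none, 1 model of all libraries with and without variance weights per group, a GC and length correction, a replicate block and leaving out each library.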

Additional observations from a re-analysis of the deposited data

Results flagged for a closer look

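In 210 sets of 4 libraries (30 members in 7 groups), 10 held a single library whose gap to the others exceeded 0.829 of the whole range, Dixon's value for 4 samples, where chance gives about 5% of sets. Acaca in IFN-γ Tconv-phagocytic macrophages was at 4.02 scaled TPM in BV421-1 and at 2.31 to 2.38 in the others, and this library is the highest of a group that lay below IL-10 throughout. Tm7sf2 in IFN-γ Treg-phagocytic macrophages was at 14.6 in Ax647-1 and at 21.5 to 22.8 in the others. Mvk in M0 was at 6.40 in library 1 and at 7.94 to 8.13 in the others. Stard4 in IFN-γ Tconv-phagocytic macrophages was at 7.63 in BV421-2 and at 2.26 to 3.16 in the others, and Scd1 in the same library was at 3.39 against 0.553 to 0.725. Scd1 in IL-10 non-phagocytic macrophages was at 2.21 in library 4 and at 0.269 to 0.541 in the others. Hsd17b7 was at 3.40 in IFN-γ non-phagocytic library 4 against 0.154 to 0.686, and at 2.22 in IL-10 non-phagocytic library 1 against 1.36 to 1.47. Small gaps of this kind were Sc5d in IL-10 Treg-phagocytic BV421-2 (17.7 against 18.4 to 18.5) and Fads1 in IL-10 Tconv-phagocytic BV421-1 (32.3 against 34.2 to 34.6).

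Nsdhl differed between the cytokines in its response to the kind of T cell engulfed, by a log2 value of -0.65 (limma, adjusted p 0.0187; 0.0673 with a variance weight per group), with lower levels in Treg- than in Tconv-phagocytic macrophages under IFN-γ and overlapping levels under IL-10.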

How the results depend on the processing

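Of the alternatives run for single called members, 939 kept the direction and the call, 173 lost the call and 2 reversed: without scaling, Srebf2 in non-phagocytic (-0.13) and Insig1 in Treg-phagocytic macrophages (-0.05), IFN-γ against IL-10. Counts of members called are given next, without the shares of all genes called under each alternative. A changed count therefore does not show whether members moved more than other genes. IL-10 against M0 gave 6 in 1 model of all 28 libraries. IFN-γ against IL-10 gave 6 to 14 in non-phagocytic macrophages when 1 library was left out. In Treg-phagocytic ones it gave 14 without scaling and 3 to 9 when 1 library was left out.

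For IFN-γ Treg against Tconv, in place of 0, the model of all libraries gave 7, with variance weights 1, no scaling 5, and a filter of 5 TPM or a pseudocount of 0.1 gave 1 each; without 1 library the count was 0 to 1. For IL-10 Treg against Tconv a pseudocount of 0.1 gave 1, and without 1 library 0 to 1. Against non-phagocytic macrophages, the model of all libraries gave 4 for IFN-γ Treg. For IL-10 Treg, in place of 1, the GC and length correction gave 0, no filter 2, no scaling 2, and without 1 library 0 to 1. For IL-10 Tconv no scaling gave 1 and without 1 library 0 to 1. For the difference of Treg against Tconv between cytokines, in place of 1, the model of all libraries gave 3, with weights 0, a filter of 5 TPM 2, no filter 2, no scaling 4, a pseudocount of 5 gave 2, and without 1 library 1 to 5. For that of Treg against non-phagocytic the model of all libraries gave 1 and without 1 library 0 to 1.

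Over 52 pairs of same-numbered libraries the correlation of deviations was -0.067 to 0.085, none over 0.1. The number of libraries that correlated best with their own number was 6 of 8 by title number, a hint from the data and not from the design, 3 of 8 by dye and number, and 8 of 36 by file number. With a replicate block the members called were 12 for IFN-γ and 9 for IL-10 against M0. For IFN-γ against IL-10 they were 8 in non-phagocytic (with the GC and length correction 9), 13 in Tconv-phagocytic (with the correction 11) and 4 in Treg-phagocytic macrophages (with the correction 4). The block gave 0 for IL-10 Treg against non-phagocytic and 0 for the difference of Treg against Tconv, each also 0 with the correction, and 0 in the other uptake comparisons. Adjusted p under the block was 0.0554 for the Nsdhl difference (0.0588 with the correction). With block and correction, IFN-γ against IL-10 was not called for Acly in Treg-phagocytic (-0.27, adjusted p 0.0745) or Srebf1 in Tconv-phagocytic macrophages (-0.36, adjusted p 0.0563). The cause of these changes was not tested. The IFN-γ libraries had 11.1% to 23.9% of the depth of the deepest library, which limits what can be seen in Scd1, Fads2, Hsd17b7 and Elovl6.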

Other observations

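Genes that move cholesterol in and out of the cell were not among the 30 members. Of 18 such genes tested, 2 were called higher and 11 lower in IFN-γ non-phagocytic macrophages against M0, and 4 higher and 4 lower under IL-10. Of all genes, 27% were called higher and 26.1% lower under IFN-γ, and 13.8% and 12.8% under IL-10. Abca1, the exporter that loads cholesterol onto apolipoprotein, was at 31.8 ± 0.863 scaled TPM in M0, 14.3 ± 1.65 under IFN-γ and 49.5 ± 1.48 under IL-10 (SD, n = 4). It was lower under IFN-γ than under IL-10 in non-phagocytic (log2 -1.73, limma adjusted p 4.07e-07), Tconv-phagocytic (-1.95, limma adjusted p 4.34e-07) and Treg-phagocytic macrophages (-1.58, limma adjusted p 9.02e-05). Npc1, which releases cholesterol from lysosomes, was at 74.2 ± 2.04 under IFN-γ and 168 ± 1.68 in M0 (SD, n = 4; log2 -1.17, limma adjusted p 8.35e-08), and Lrp1, an uptake receptor, at 124 ± 11.3 and 264 ± 12.6 (SD, n = 4; log2 -1.08, limma adjusted p 2.94e-06).

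Some of these 18 genes were called between uptake states, where the synthesis genes, with 1 exception, were not. The difference between the lists was not tested. Against non-phagocytic macrophages, 4 were called higher and 2 lower in IL-10 Treg-phagocytic ones (11.3% of all genes called). In IL-10 Tconv-phagocytic ones 3 were higher and 0 lower (6.02%), and in IFN-γ Treg-phagocytic ones 2 higher and 1 lower (8.28%). Between Treg- and Tconv-phagocytic macrophages, 1 was called under IL-10 (1.4%) and 0 under IFN-γ (12.7%). Lipa, the lysosomal lipase that frees cholesterol from its esters, was at 455 to 485 scaled TPM in IL-10 non-phagocytic, 540 to 563 in Tconv-phagocytic and 599 to 632 in Treg-phagocytic macrophages, without overlap. The log2 differences from non-phagocytic were 0.23 (limma adjusted p 0.00172) and 0.39 (limma adjusted p 0.000121), and that between Treg and Tconv was 0.16 (limma adjusted p 0.0154). In M0, Lipa was higher than in these 3 IL-10 groups, at 844 to 876. Under IFN-γ, Lipa differed by log2 0.13 between Treg-phagocytic and non-phagocytic macrophages (limma adjusted p 0.0411). Mylip, a ligase that marks lipoprotein receptors for degradation, was at 43.4 to 44.6, 48.8 to 50.2 and 52.8 to 55.6 in the same 3 IL-10 groups. The summed T cell genes ran in the same order, at 78.2 to 90.2, 114 to 160 and 179 to 209, and their part in these differences was not tested. Of 20 genes of fatty acid oxidation, 2 were called higher and 9 lower under IFN-γ against M0. Of all genes, 53% were called, 27% higher and 26.1% lower. The median log2 fold change of this list was -0.31, beside -0.005 for all genes. Cpt1a, which admits long fatty acids to mitochondria, was at 19.0 ± 2.06 and 57.2 ± 2.90 (SD, n = 4; log2 -1.54, limma adjusted p 1.08e-06).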
